A study of Mus musculus with 6 samples.

Results

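The genes described here are the variable (V) segments of the mouse antibody loci: the rows of the deposited table whose symbol begins Ighv, Igkv or Iglv and whose biotype in GENCODE release M21 is IG_V_gene. They number 216 of the 34866 genes in the table, with 113 in the heavy chain locus, 100 in the kappa light chain locus and 3 in the lambda light chain locus. RNA was taken from antral mucosa (the antrum is the distal part of the stomach) in 3 Muc6 +/+ samples, called wild type 1 to 3, and 3 Muc6 -/- samples, called knockout 1 to 3. Muc6 encodes a gel-forming mucin of the antral glands, and the comparison addresses its link to stomach tumor formation. The labels name no treatment. How the Muc6 allele was disrupted, the mouse strain and the age were not given in the sources used here. Nothing in the labels says that libraries of a genotype came from separate animals, so p-values measure the spread between these samples only.

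An antibody is built from heavy and light chains, and each chain begins with a variable domain that contacts antigen. A developing B cell joins 1 V segment to short D and J segments (heavy chain) or to a J segment (light chain), so a B cell and its descendants carry a single productive heavy chain rearrangement and usually a single light chain rearrangement. Plasma cells, the antibody-secreting descendants of B cells, transcribe the joined V segment at a high rate together with a constant region, which in the gut mucosa is mostly that of IgA. V transcripts in a tissue therefore come chiefly from B cells and plasma cells, and a plasma cell clone repeats the same V segment in all of its members.

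Total estimated counts were 19839691 to 21353935 per library. The targeted gene was at 396 to 510 CPM (counts per 1000000 counts of the composition-scaled library) in wild type, and 1 Muc6 count was present over the 3 knockout libraries. The Y-linked gene Ddx3y was at 0.058 to 0.326 CPM in wild type and 39.3 to 41.1 CPM in the knockout, so sex and genotype coincide and cannot be told apart in any difference below. Genes of gastric epithelium were present in every library, but their levels differed between genotypes. Pdx1, a regional transcription factor, was at 29.4 to 42.1 CPM in wild type and 54.9 to 61.2 CPM in the knockout. Gkn1, a surface cell product, was at 48760 to 65087 CPM in wild type and 10266 to 14531 CPM in the knockout. In the same order, Muc5ac was at 5740 to 6279 and 270 to 1274 CPM, and Tff2 at 4701 to 6875 and 12822 to 17617 CPM. Gast, the antral hormone gastrin, was at 762 to 1196 CPM in wild type and 9.52 to 24.8 CPM in the knockout. Wild type 1 and knockout 1 stood apart from the other 4 libraries on the second principal component, which held 19.6% of the variance. Confidence intervals (exact Clopper-Pearson, 95%) and floors given below cover counting error only.

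Sequences are shown for the segments on which the results turn. Ighv6-3 and Igkv2-109 were the leading heavy and kappa segments of knockout 3, the library with the most V counts. Capitals mark the last in-frame cysteine codon (TGT or TGC) and the bases after it, the place where the germline segment begins to contribute to the antigen-contacting loop formed at the V to J junction. Such a codon lay within 40 bases of the end in 214 of the 216 members. Igkv1-110 and Igkv1-117 are near copies that both ranked among the 6 highest kappa segments in 2 of the 3 knockout libraries, and Iglv1 and Iglv2 are near copies that differed widely in use. In these 4 sequences capitals mark the bases at which the pair differ. All are the last 290 coding bases of the segment, 5′ to 3′ on the coding strand, from GENCODE M21 transcripts (mm10).
Ighv6-3 (chr12:114391712-114392001, minus strand): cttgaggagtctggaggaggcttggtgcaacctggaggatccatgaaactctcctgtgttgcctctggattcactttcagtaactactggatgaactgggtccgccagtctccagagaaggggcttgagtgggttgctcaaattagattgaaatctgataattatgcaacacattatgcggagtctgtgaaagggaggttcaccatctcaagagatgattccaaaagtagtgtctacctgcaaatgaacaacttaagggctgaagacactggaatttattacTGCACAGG
Igkv2-109 (chr6:68302869-68303158, plus strand): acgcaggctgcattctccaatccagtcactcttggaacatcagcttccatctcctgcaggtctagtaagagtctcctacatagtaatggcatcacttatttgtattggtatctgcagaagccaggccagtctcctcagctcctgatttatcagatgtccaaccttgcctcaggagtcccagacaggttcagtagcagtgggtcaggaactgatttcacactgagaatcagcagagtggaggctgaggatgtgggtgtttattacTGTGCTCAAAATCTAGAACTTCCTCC
Igkv1-110 (chr6:68270978-68271267, plus strand): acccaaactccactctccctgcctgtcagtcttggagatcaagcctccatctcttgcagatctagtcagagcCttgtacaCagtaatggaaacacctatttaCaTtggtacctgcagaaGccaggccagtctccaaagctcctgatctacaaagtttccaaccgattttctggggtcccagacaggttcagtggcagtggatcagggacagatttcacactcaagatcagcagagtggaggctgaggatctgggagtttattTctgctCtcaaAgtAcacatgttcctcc
Igkv1-117 (chr6:68121538-68121827, plus strand): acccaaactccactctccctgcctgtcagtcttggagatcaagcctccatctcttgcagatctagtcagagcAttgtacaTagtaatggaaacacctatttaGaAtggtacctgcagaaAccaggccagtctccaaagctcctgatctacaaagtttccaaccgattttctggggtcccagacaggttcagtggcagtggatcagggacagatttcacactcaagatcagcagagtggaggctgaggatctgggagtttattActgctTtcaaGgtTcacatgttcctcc
Iglv1 (chr16:19085017-19085306, minus strand): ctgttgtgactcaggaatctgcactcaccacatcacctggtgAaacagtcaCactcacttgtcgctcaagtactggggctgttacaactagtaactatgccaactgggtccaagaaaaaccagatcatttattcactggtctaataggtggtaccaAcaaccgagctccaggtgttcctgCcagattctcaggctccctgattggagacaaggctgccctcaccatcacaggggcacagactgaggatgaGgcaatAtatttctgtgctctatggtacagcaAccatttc
Iglv2 (chr16:19260401-19260690, minus strand): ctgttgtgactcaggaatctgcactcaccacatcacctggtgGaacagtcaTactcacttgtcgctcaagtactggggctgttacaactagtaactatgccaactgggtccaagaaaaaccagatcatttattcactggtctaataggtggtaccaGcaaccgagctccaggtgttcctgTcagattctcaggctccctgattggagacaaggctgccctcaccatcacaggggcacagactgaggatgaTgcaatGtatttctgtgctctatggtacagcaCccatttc

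V transcripts were almost absent from wild-type antrum and present from all 3 loci in every knockout library. Wild type 1, 2 and 3 held 0, 4 and 1 V counts, and knockout 1, 2 and 3 held 2312, 1242 and 4286. In CPM the sums were 0, 0.225 and 0.058 in wild type and 98.2, 51.6 and 187 in the knockout. The groups did not overlap, and knockout 3 was 3.62 times knockout 2. Over each genotype the ratio of the summed levels was 1188 (95% interval 509 to 3659). In bulk RNA, more cells of a type and more RNA per cell cannot be told apart.

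Each locus showed the same order of libraries. In wild type 1, 2 and 3 the summed heavy chain V level was 0, 0 and 0.058 CPM, and in knockout 1, 2 and 3 it was 39.7, 20.8 and 79.9 CPM. Pooled over the libraries of each genotype, the ratio was 2475 (444 to 97778), resting on 1 wild-type count. Summed kappa V levels were 0 CPM in all 3 wild-type libraries and 52.1, 26.3 and 82.2 CPM in the knockout, at least 945-fold higher against a floor of 3 counts over the wild-type group. Summed lambda V levels were 0, 0.225 and 0 CPM in wild type and 6.37, 4.57 and 24.9 CPM in knockout 1, 2 and 3. Their pooled ratio was 157 (61.2 to 578). Knockout 3 was the highest and knockout 2 the lowest library at all 3 loci. The difference in mean log2(CPM + 0.1) was 8.44, 8.92 and 5.94 for the heavy, kappa and lambda sums. The exact two-sided permutation p was 0.1 for each locus, the smallest that 3 against 3 libraries allow, and it stayed at 0.1 when adjusted over the 3 loci because all were equal. The same differences without knockout 3 were 7.95, 8.54 and 5.21.

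**Figure D1:**
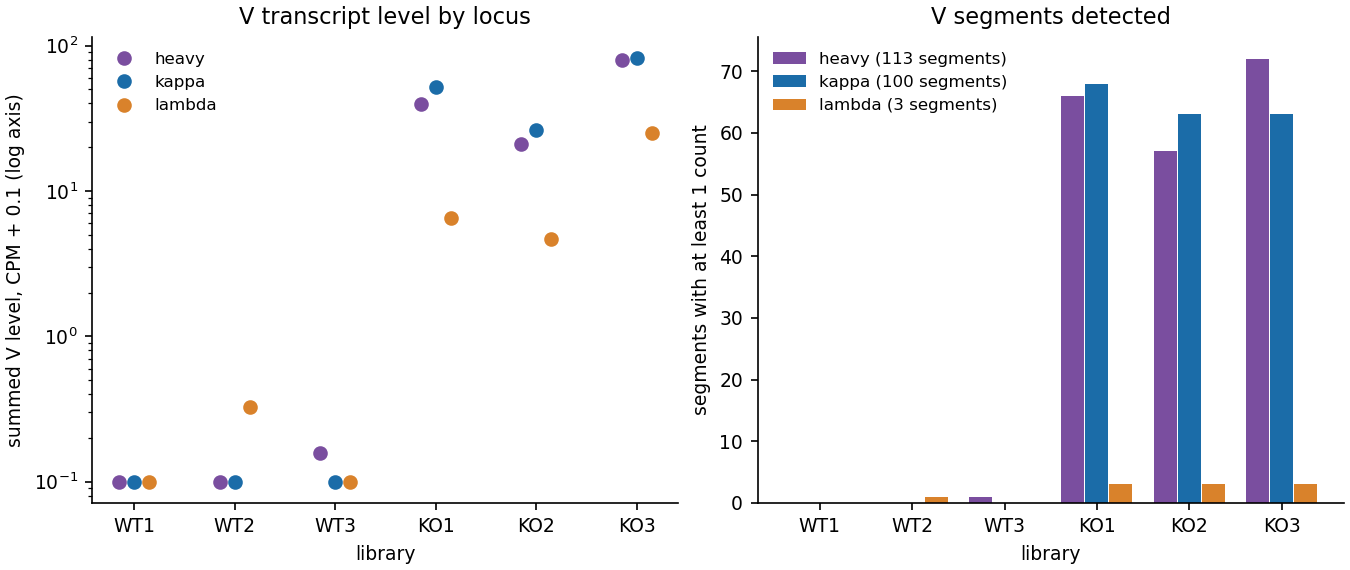
Left, summed V level of each locus in each library, as CPM + 0.1 on a log axis, with a point per locus. Right, the number of V segments with at least 1 count. Wild-type libraries hold 0 or 1 segment, and knockout libraries hold 57 to 72 heavy, 63 to 68 kappa and 3 lambda segments.

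Most of the germline V segments were seen in the knockout. Segments with at least 1 count numbered 137 in knockout 1, 123 in knockout 2 and 138 in knockout 3, that is 63.4%, 56.9% and 63.9% of the 216. Wild type 2 and 3 each showed 1 segment and wild type 1 none. For wild type 1 a count of 0 allows a summed V level of up to 0.163 CPM. By locus, the knockout libraries held 66, 57 and 72 of 113 heavy segments and 68, 63 and 63 of 100 kappa segments. All 3 lambda segments were present in each knockout library. The number seen grows with the number of counts, so it was also computed at the depth of the shallowest knockout library, 1242 V counts. There 124.9 segments would be seen in knockout 1, 123 in knockout 2 and 112.7 in knockout 3. Knockout 3, with the most V counts, showed the fewest segments at equal depth.

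Over the 3 knockout libraries together 170 of the 216 segments had a count, and 46 had none. Of the 216, 28 held 1 to 3 counts, 24 held 4 to 9, 73 held 10 to 49 and 45 held 50 or more. The undetected segments were 28 heavy and 18 kappa. Segments present in all 3 knockout libraries numbered 92, those in exactly 2 numbered 44 and those in 1 only 34. The 92 shared segments carried 83.7%, 84.4% and 91.5% of the V counts of knockout 1, 2 and 3. For 91 of the 216 members (42.1%), every knockout library was above every wild-type library, against 12.8% of all genes in the table. Among all genes with at least 1 count the share was 20.9%. Wild-type libraries held almost no V counts, so for the members this restates detection in all 3 knockout libraries. The 1 segment that was present in all knockout libraries and yet overlapped with wild type was Iglv2, for which wild type 2, at 0.225 CPM, exceeded knockout 2, at 0.125 CPM.

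Heavy segments took a similar part of V counts in each knockout library. Heavy segments made up 40.4%, 40.3% and 42.7% of V counts in knockout 1, 2 and 3. Light chain counts were 1.47, 1.48 and 1.34 times the heavy chain counts. Within the light chains, lambda took 10.9% (95% interval 9.30 to 12.7) in knockout 1, 14.8% (12.3 to 17.6) in knockout 2 and 23.2% (21.6 to 24.9) in knockout 3. The interval of knockout 3 did not overlap with the other two, so its lambda share stood above theirs beyond counting error.

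V counts moved in step with constant region counts within the kappa locus. The ratio of Igkv counts to those of Igkc, the kappa constant region, was 0.327, 0.328 and 0.353 in knockout 1, 2 and 3. For the heavy chain, V counts per count of all heavy constant regions were 0.177, 0.155 and 0.192. For lambda the ratio to Iglc1, Iglc2 and Iglc3 together was 1.10, 0.728 and 0.891. These are ratios of counts, not per length, so they are compared between libraries and not between loci. Wild type 3 had 26 heavy constant region counts, 25 of them from Ighm, the IgM constant region, and 1 heavy V count, a ratio of 0.0385.

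Use of single heavy segments differed strongly between knockout libraries. In knockout 3, Ighv6-3 (ENSMUSG00000076677.1, chr12:114391712-114392169, minus strand) held 647 of 1832 heavy V counts, a share of 35.3% (33.1 to 37.6). The same segment held 16 of 935 counts in knockout 1 and 19 of 500 in knockout 2, shares of 1.71% and 3.8%. Its level was 0 CPM in the wild-type libraries and 0.680, 0.790 and 28.2 CPM in knockout 1, 2 and 3. It was thus at least 172-fold higher over the knockout group, yet knockout 3 alone supplied most of that level. Ighv7-3 followed in knockout 3, with 205 counts or 11.2% (9.78 to 12.7), against 30 and 12 counts in knockout 1 and 2. Together with the next segment these made up 50% of the heavy V counts of knockout 3.

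The leading heavy segments of the other knockout libraries took smaller shares. Knockout 1 was led by Ighv9-3 with 91 counts, 9.73% (7.91 to 11.8). Knockout 2 was led jointly by Ighv10-1 and Ighv5-9-1 with 55 counts each, 11% (8.39 to 14.1). No segment led in more than 1 library. Reaching 50% of heavy V counts took 12 segments in knockout 1, 8 in knockout 2 and 3 in knockout 3. The inverse Simpson index, the number of equally used segments that would give the same evenness, was 28.9, 20.4 and 6.84. Without its leader, knockout 3 had an index of 19.6, against 32.5 and 21.4 for knockout 1 and 2 without theirs.

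The kappa locus showed a similar contrast. Igkv2-109 (ENSMUSG00000105606.1, chr6:68302427-68303158, plus strand) held 542 of 1884 kappa V counts in knockout 3, a share of 28.8% (26.7 to 30.9), with 23 of 1227 in knockout 1 and 7 of 632 in knockout 2. In CPM it was at 0.977, 0.291 and 23.6 in knockout 1, 2 and 3 and at 0 in the wild-type libraries, at least 144-fold higher over the group. Igkv8-21 followed in knockout 3 with 118 counts, 6.26% (5.21 to 7.45), against 7 and 9 counts in knockout 1 and 2. Igkv10-96 led knockout 1 with 108 counts, 8.80% (7.28 to 10.5), and Igkv1-110 led knockout 2 with 72 counts, 11.4% (9.02 to 14.1). Reaching 50% of kappa V counts took 10, 10 and 6 segments, and the inverse Simpson index was 27.0, 24.3 and 9.74. Without Igkv2-109 the index of knockout 3 was 25.5, against 28.4 and 27.9 for knockout 1 and 2 without their leaders.

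**Figure D2:**
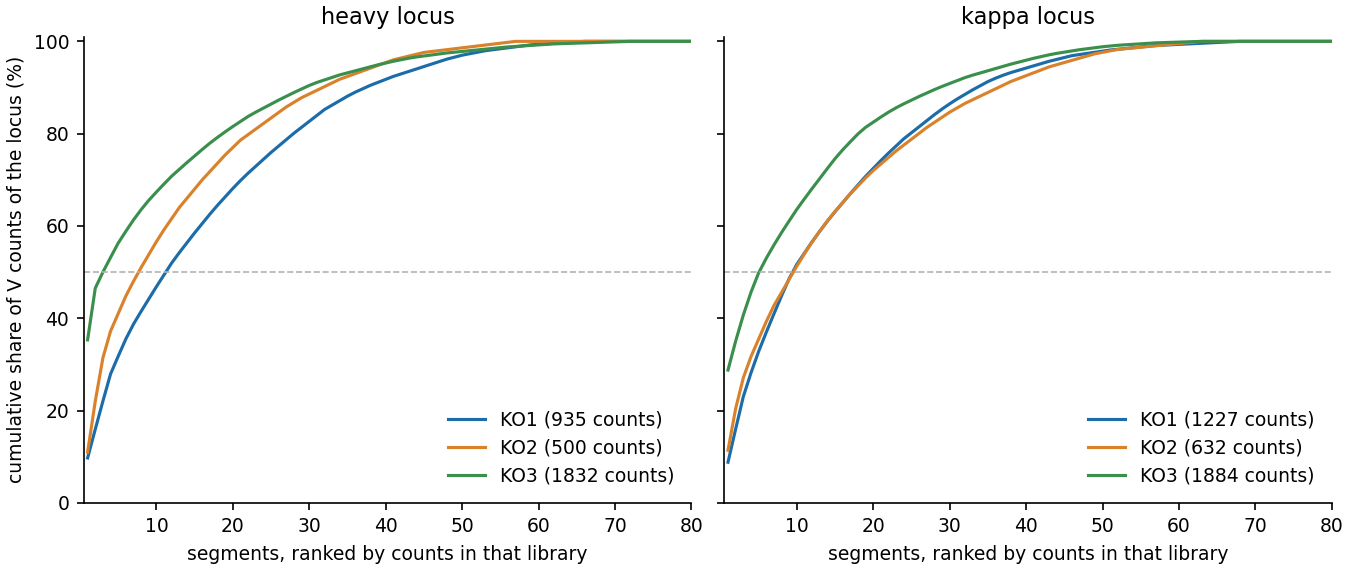
Cumulative share of the V counts of a locus (percent) against the rank of the segment in that library, with a line per knockout library, and a dashed line at 50%. Knockout 3 starts at 35.3% for the heavy locus and 28.8% for the kappa locus, above knockout 1 and 2, which start between 8.80% and 11.4%.

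In the lambda locus a single segment dominated in every knockout library. Iglv1 (ENSMUSG00000076934.2, chr16:19085017-19085500, minus strand) held 133 of 150, 97 of 110 and 516 of 570 lambda V counts in knockout 1, 2 and 3. These are shares of 88.7% (82.5 to 93.3), 88.2% (80.6 to 93.6) and 90.5% (87.8 to 92.8), which overlapped. In CPM, Iglv1 was at 5.65, 4.03 and 22.5 in knockout 1, 2 and 3, and no wild-type library held a count. Iglv2 had 10, 3 and 52 counts, and it was also the only segment with more than 1 wild-type count, 4 in wild type 2. Iglv3 had 7, 10 and 2 counts. The lambda constant regions changed order between libraries while Iglv1 kept its share. Iglc1 took 64.0% and 60.3% of lambda constant region counts in knockout 1 and 2, but Iglc3 took 65.8% (62.0 to 69.5) in knockout 3, against 8.09% and 12.6% in the others.

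**Figure D3:**
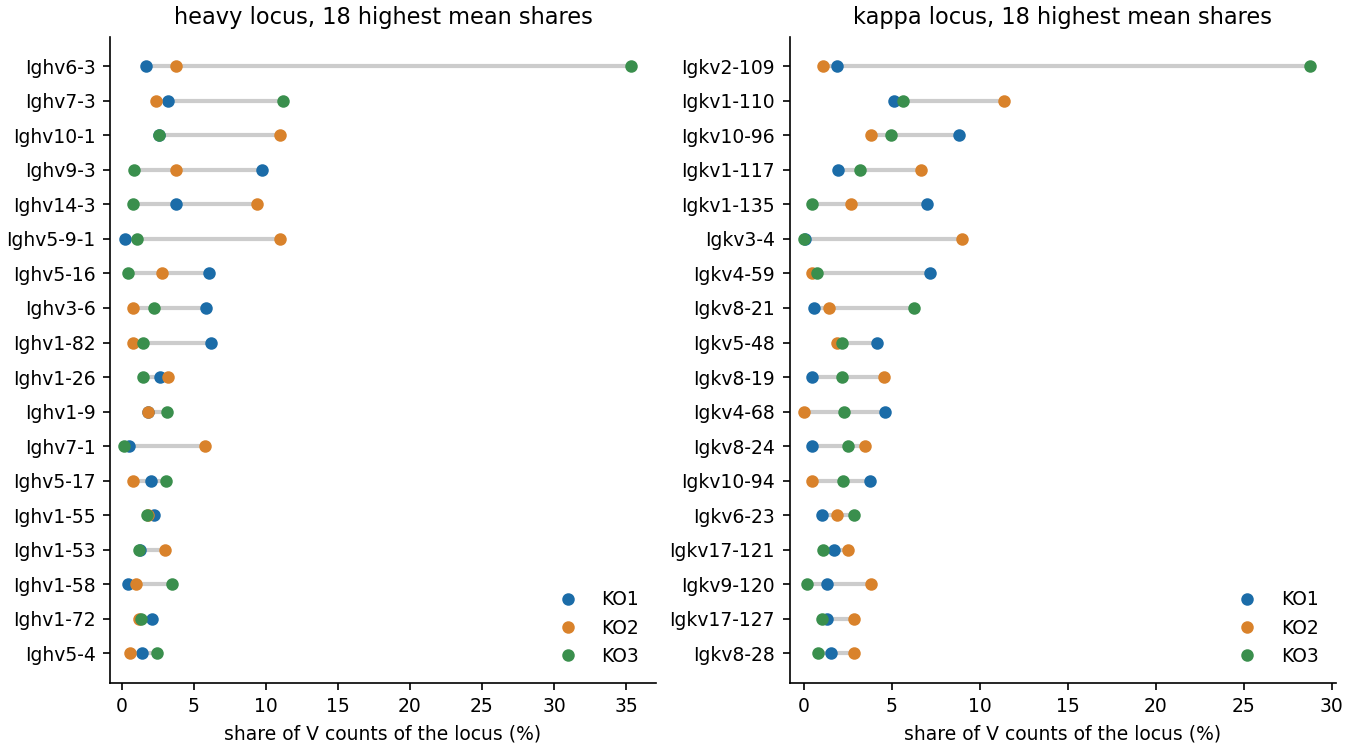
Share of the V counts of the locus (percent) held by the 18 segments with the highest mean share in each locus, with a point per knockout library and a grey line from the lowest to the highest. Ighv6-3 and Igkv2-109 have the widest spread, with knockout 3 at 35.3% and 28.8%.

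The order of segments was only loosely shared between knockout libraries. Across the heavy segments with a count in either library of a pair, Spearman's rho of the counts was 0.27 between knockout 1 and 2 (75 segments), 0.25 between 1 and 3 (83) and 0.39 between 2 and 3 (81). Across kappa segments it was 0.30 (76), 0.50 (78) and 0.35 (74) for the same pairs. These are descriptions across genes that share a locus and a library, and many of the counts are low. Of the 10 most used heavy segments of a library, 2 to 4 were among the 10 most used of another, and the same range held for kappa.

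Few V segments had enough counts in all knockout libraries for a test of their own. Of 216 members, 17 passed the filter on low counts in edgeR, and 16 of these 17 were higher in the knockout with a Benjamini-Hochberg adjusted p under 0.05 over 14017 tested genes, of which 19.3% were higher. None of the 17 was called lower, and none could be, because none held a wild-type count. A segment with no wild-type counts could pass the filter only through its knockout level. The count of 16 and the adjusted p-values of these segments therefore carry no weight by themselves. The 16 were 9 kappa, 6 heavy and 1 lambda segments. Fewer libraries let more segments through the filter, and the count called was 37, 26 and 31 without wild type 1, 2 and 3 and 19, 40 and 22 without knockout 1, 2 and 3. Over all genes tested, 11% to 21% were higher in these 6 fits. With a stricter filter, at least 1 CPM in 3 libraries, 5 segments were tested and called, against 20.2% of all genes higher.

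The 4 segments with the smallest adjusted p were Igkv1-110, Ighv10-1, Igkv1-117 and Igkv10-96. Igkv1-110 was at 2.68, 2.99 and 4.62 CPM in knockout 1, 2 and 3 and at 0 in wild type, at least 60.9-fold higher (edgeR adjusted p = 0.00133). It ranked 4, 1 and 3 among kappa segments. Ighv10-1 was at 1.02, 2.29 and 2.05 CPM, at least 31.8-fold higher (edgeR adjusted p = 0.00331). Igkv1-117 was at 1.02, 1.75 and 2.62 CPM (edgeR adjusted p = 0.00372) and Igkv10-96 at 4.59, 0.997 and 4.06 CPM (edgeR adjusted p = 0.00492). Wild-type libraries held no counts of these 4 segments, so passing the filter already required counts in all 3 knockout libraries.

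Among the other segments past the threshold, 4 lay between 0.654 and 1.18 CPM in every knockout library. Presence in all 3 was required by the filter, because no tested segment held a wild-type count. The adjusted p-values given here and for Ighv6-3 carry no weight by themselves. Igkv17-121 was at 0.892, 0.665 and 0.916 CPM and Igkv17-127 at 0.680, 0.748 and 0.872 CPM, the 2 members of their family. Igkv8-28 was at 0.807, 0.748 and 0.654 CPM, and Ighv1-26 at 1.06, 0.665 and 1.18 CPM. Ighv14-3, Ighv1-53, Ighv9-3, Igkv5-43, Igkv5-48, Igkv6-23 and Iglv1 also passed, with edgeR adjusted p of 0.00621 to 0.0159. Ighv7-3, at 1.27, 0.499 and 8.94 CPM, passed narrowly (edgeR adjusted p = 0.0447), and its call ended without any single wild-type library or knockout 1 (0.0845 to 0.0955).

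Ighv6-3, the heavy segment with the highest mean level, did not pass (edgeR adjusted p = 0.121), with 0.680 and 0.790 CPM in knockout 1 and 2 beside 28.2 in knockout 3. Without knockout 3 its adjusted p was 0.0215. Igkv2-109, Igkv8-21, Ighv5-9-1 and Ighv3-6 were not tested because too few libraries reached the filter. Ighv3-6 had 55, 4 and 41 counts in the knockout and was the source of the single heavy V count of wild type 3.

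Segments are grouped into families by sequence. Among heavy families, Ighv1, the largest with 53 of 113 segments (46.9%), took 45.0%, 32.4% and 25.0% of heavy V counts in knockout 1, 2 and 3. Ighv5, with 10 segments, took 13.7%, 17.8% and 8.62%. Ighv6, with 5 segments, took 1.93% and 5.40% in knockout 1 and 2 and 37.1% in knockout 3, and only 2 of its segments, Ighv6-3 and Ighv6-6, had a count. Ighv8 and Ighv2, with 9 segments each (7.96%), took less than their share of segments in all 3 libraries, at 2.0% to 2.62% and 1.15% to 2.20%. Ighv10, with 2 segments (1.77%), took more in all 3, at 3.38% to 11.4%. Ighv11 counts were present in knockout 3 alone, all 26 from Ighv11-2.

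Among kappa families, Igkv4, the largest with 26 of 100 segments, took 26.2%, 13.0% and 9.93% of kappa V counts in knockout 1, 2 and 3. Igkv1, with 10 segments, took 14.3%, 22.3% and 9.87%, and Igkv8, also with 10, took 6.19%, 13.6% and 15.5%. Igkv2, with 3 segments, took 3.99% and 4.75% in knockout 1 and 2 and 28.9% in knockout 3, nearly all of it from Igkv2-109. Igkv6 was the steadiest of the larger families, at 7.01%, 6.80% and 7.48% for 9 segments. Igkv10 took 12.6%, 4.27% and 7.17% with 3 segments, of which 2 had a count.

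**Figure D4:**
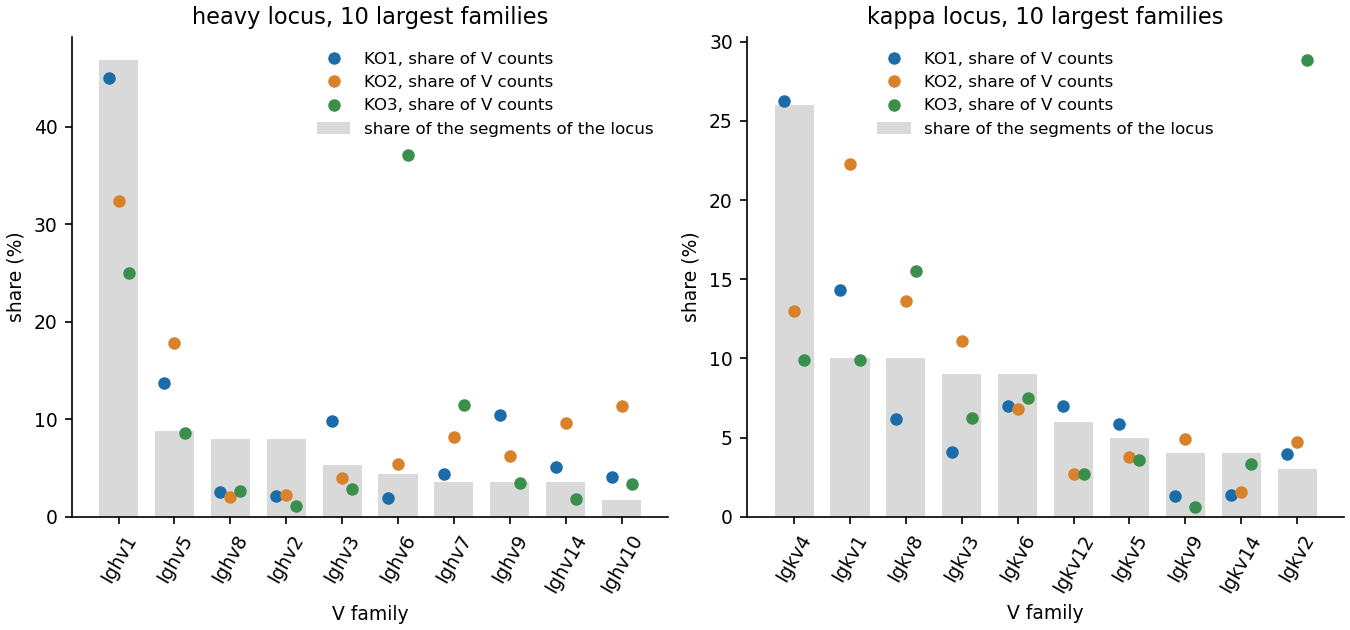
Share (percent) of the segments of the locus (grey bars) and of V counts in each knockout library (points) for the 10 largest heavy and kappa families. Ighv6 and Igkv2 rise far above their bars in knockout 3, at 37.1% and 28.9%, and Ighv8 and Ighv2 stay below theirs in all 3 libraries.

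Segments were used along the whole length of the heavy and kappa loci. The heavy segments lay 149 to 2570 kb from the nearest J segment, and the 56 nearest, within 1154 kb, held 55.8%, 72.0% and 77.0% of heavy V counts in knockout 1, 2 and 3. Without the leader of each library these shares were 51.1%, 68.5% and 64.5%. The numbers of segments detected in the near and far parts were similar, at 34 and 32, 28 and 29, and 37 and 35. For kappa the 50 nearest segments, within 1305 kb, held 44.6%, 45.9% and 41.0% of counts, and 48.9%, 51.8% and 57.6% without the leaders. Spearman's rho between distance and counts lay between -0.03 and 0.09 over 113 heavy segments and between -0.03 and 0.10 over 100 kappa segments in the 3 libraries, as a description across genes of a locus. The kappa locus has segments in both orientations, and the 38 on the plus strand, that of Igkc, held 35.4%, 53.0% and 53.3% of counts. Igkv2-109, Igkv1-110 and Igkv1-117 are among them.

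**Figure D5:**
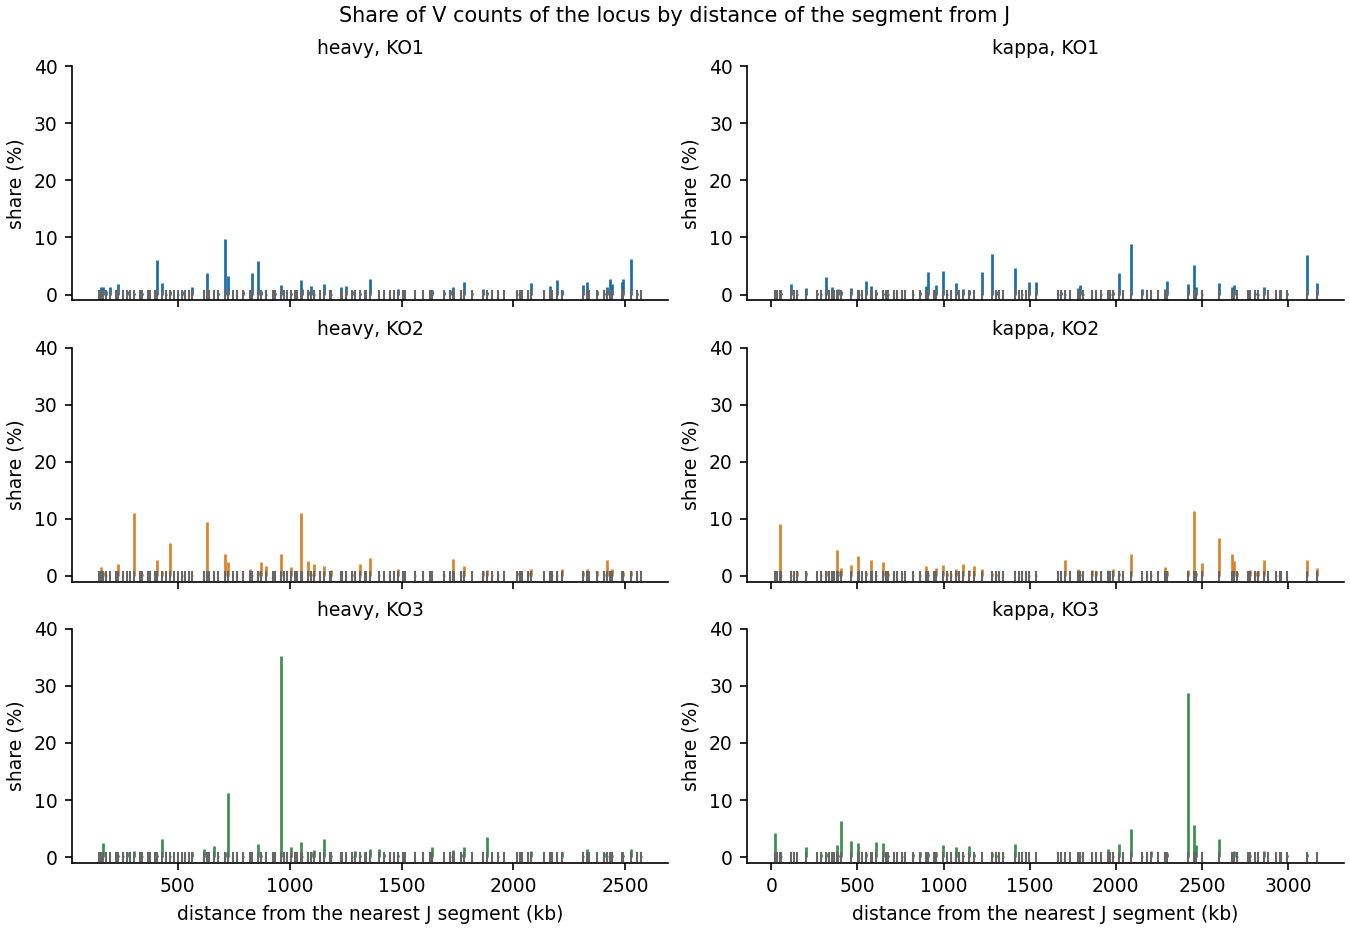
Share of the V counts of the locus (percent) by distance of the segment from the nearest J segment (kb), for the heavy and kappa loci in each knockout library. Ticks at 0 mark every segment, and the tall lines in knockout 3 are Ighv6-3 at 962 kb and Igkv2-109 at 2419 kb.

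V segments resemble each other, and reads from near copies can be divided between them. Of the 170 segments with a count, 72 had an estimated count that was not whole (by more than 0.001) in a knockout library, and these held 47.4% of V counts. Their median identity to the most similar other V gene or pseudogene of the locus was 96.3% over coding bases, against 93.2% for the 98 segments with whole values. Igkv1-110 and Igkv1-117 differ at 10 of 359 aligned coding bases, and both had values that were not whole, so their separate levels are uncertain. Iglv1 and Iglv2 differ at 11 of 351, and this holds for them too. Igkv17-121 and Igkv17-127 differ at 9 of 353, and Igkv8-28 and Igkv8-19 at 9 of 365. Ighv1-26 differs from Ighv1-18 at 11 of 351 and had a value that was not whole. Whether reads were divided within these pairs was not tested. Ighv6-3, with 91.0% identity to its nearest relative, and Igkv2-109, with 95.9%, had whole values in every library. The table counts reads on germline segments, and reads with many somatic mutations or lying on the junction may be missed, to an extent that was not tested.

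Most constant region genes that could be tested were higher in the knockout. Of the 12 constant region genes listed, 7 were tested, 6 rose and none fell. Iglc1, Iglc2, Iglc3 and Ighg2b held 0 wild-type counts, Igkc 2 and Igha 8, so they passed the filter only through their knockout level. None of these could be called lower, and their calls carry no weight by themselves. Over all 14017 genes tested, 19.3% were higher and 19.2% lower, and these shares also apply to the gene lists below. The same limit applies there to Jchain, Tnfrsf13b, Derl3, Tnfsf13b, Cd79a, Trbc2, Cd4 and Il6, each with 0 to 15 wild-type counts. Igha, the IgA constant region, had levels of 0.435, 0 and 0 CPM in the wild-type libraries and 207, 114 and 406 CPM in the knockout libraries (log2 change 10.61, SE 1.04, edgeR adjusted p = 0.00168). It took 92.1%, 85.4% and 97.4% of heavy constant region counts in knockout 1, 2 and 3. Ighm levels were 0.109, 0.844 and 1.45 CPM in the wild-type libraries and 12.8, 18.4 and 8.81 CPM in the knockout libraries (log2 change 4.06, SE 0.73, edgeR adjusted p = 0.00684). Its order over the knockout libraries was the reverse of that of Igha and of summed heavy V. Igkc was at 159, 79.95 and 233 CPM in the knockout and had 2 counts in wild type, a ratio of 4172 (1155 to 34450). Iglc1, Iglc2 and Ighg2b (IgG2b) also rose, all from 0 wild-type counts, while Iglc3 did not pass (edgeR adjusted p = 0.113). Ighg1 had 63 knockout counts against 1, Ighg2c 22 against 0, Ighd (IgD) 14 against 1 and Ighg3 4 against 0, and Ighe (IgE) had none.

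In the plasma cell list 11 of 15 genes were tested, with 6 higher and 1 lower, and the median log2 change was 0.79, against 0.02 over all tested genes. Jchain, which joins IgA and IgM units, had levels of 0.163, 0.225 and 0.348 CPM in the wild-type libraries and 75.9, 40.02 and 91.6 CPM in the knockout (log2 change 8.11, SE 0.47, edgeR adjusted p = 1.99e-04), in the same order of libraries as the V sum. Pou2af1, a B lineage coactivator, rose by 2.09 (SE 0.42, edgeR adjusted p = 0.00744), and Creld2, an endoplasmic reticulum folding factor that many cells make, rose by 1.02 (SE 0.15, edgeR adjusted p = 0.00222). Summed over the list, levels were 570 to 661 CPM in wild type and 798 to 871 CPM in the knockout, most of it from Xbp1 and Sdc1, which epithelial cells also express. Sdc1, Tnfrsf13b and Derl3 were the other 3 that rose. The gene that fell was Prdm1, which encodes a transcription factor of plasma cell differentiation that other cells make too. It had 11.7, 10.2 and 10.4 CPM in wild type 1, 2 and 3 and 7.05, 7.90 and 5.50 CPM in knockout 1, 2 and 3 (log2 change -0.66, SE 0.20, edgeR adjusted p = 0.0325).

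Genes of B cells before the plasma cell stage were low in both genotypes. Of 13 listed, 2 were tested and 1 rose: Cd79a, a chain of the B cell receptor, with 0.217, 0 and 0 CPM in the wild-type libraries and 0.935, 0.540 and 1.18 CPM in the knockout (log2 change 3.47, SE 1.02, edgeR adjusted p = 0.0317). That call ended without wild type 2 or 3 or any single knockout library (0.0595 to 0.109). Ebf1, an early B cell factor also made by stroma, did not pass (edgeR adjusted p = 0.855). The summed list was at 2.28 to 2.84 CPM in wild type and 3.31 to 4.62 CPM in the knockout. Pax5, a defining transcription factor of B cells, had 0 wild-type counts and 4 knockout counts. Other listed genes that were not tested went both ways over the libraries of each genotype. Cd22 held 10 wild-type and 28 knockout counts, and Cd79b 10 and 34. Ms4a1 held 17 and 8, Cr2 11 and 4, and Fcer2a 30 and 25. Of 8 genes of V joining and somatic mutation 1 was tested, the repair enzyme gene Ung, and it did not pass (edgeR adjusted p = 0.953). Rag1, needed to join V segments, had no counts in any library.

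T cell receptor V genes were low in both genotypes. The 129 T cell receptor V genes summed to 22, 9 and 22 counts in wild type and 41, 20 and 18 in the knockout, or 0.992 ± 0.423 and 1.12 ± 0.540 CPM (SD, n = 3 each; exact two-sided permutation p = 0.9). The ratio was 1.13 with a 95% interval of 0.787 to 1.63, and the libraries overlapped. T cell receptor constant region genes summed to 0, 4 and 6 counts against 125, 152 and 149, without overlap. Of 11 T cell genes 3 were tested and 2 rose, Trbc2, a receptor constant region (log2 change 5.53, SE 1.06, edgeR adjusted p = 0.00655), and Cd4, the coreceptor of helper T cells (3.50, SE 0.85, edgeR adjusted p = 0.0157). The call of Cd4 ended without wild type 2 or knockout 3 (0.0510 and 0.0542). Lck, a T cell kinase, did not pass (edgeR adjusted p = 0.243).

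Genes of antibody transport and of plasma cell homing and survival rose in 5 of 7 tested, of 11 listed, and none fell. Pigr, the receptor that carries IgA across epithelium, had levels of 80.9, 132 and 90.4 CPM in the wild-type libraries and 3074, 1462 and 1382 CPM in the knockout libraries (log2 change 4.29, SE 0.41, edgeR adjusted p = 8.39e-04). Its highest library was knockout 1, not knockout 3. Tnfsf13, the plasma cell survival factor APRIL, rose by 1.296 (SE 0.23, edgeR adjusted p = 0.00499) and Ccl20, a chemokine for B cells and other leukocytes, by 2.30 (SE 0.42, edgeR adjusted p = 0.00525). The cytokine genes Tnfsf13b (BAFF) and Il6 were the other 2. The part of any of these in the V levels was not tested.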

How the data were processed

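RNA-seq libraries of antral mucosa, 3 of each genotype, were analysed from the authors' deposited table of estimated counts per gene. Library preparation used the TruSeq Stranded mRNA kit, per the labels' protocols, and the build was mm10, per the submitters' processing notes. The aligner, the counting program, its annotation and its strand setting were not given in the sources used here. No label names the unit of the deposited table; it was read as estimated counts because 28.1% to 33.2% of the values above 0 in each library were not whole. Members and gene lists were chosen with earlier results of these data known.

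Counts were rounded to whole numbers. Of 34866 identifiers, 34582 were matched to GENCODE M21, 2008 of them after the version number was dropped, and every member matched in full. The main test was edgeR 4.0.16 (filterByExpr, TMM, robust quasi-likelihood, Benjamini-Hochberg adjustment over 14017 genes, threshold 0.05), with DESeq2 1.42.0 and limma-voom (limma 3.58.1) in R 4.3.3 as alternatives. On simulated data for this comparison (13869 genes in the fit), it called 51 of 51 genes raised by a factor of 4 and 7 of 47 raised by a factor of 2. It also called 6 of 13669 unchanged genes. The simulation used mean levels over both genotypes and the same spread for every gene. It therefore does not cover segments with almost no wild-type counts. Summed CPM were compared with an exact permutation test on log2(CPM + 0.1). Shares were given where a library had at least 20 V counts in a locus. Sequence identity came from global alignment of coding bases in Biopython 1.88. Where a group had no counts, folds are bounds against 3 counts over that group.

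Named members were the leading segments of each library, the 5 highest heavy and kappa segments by mean knockout level, all lambda segments, up to 15 past the threshold by smallest p, and those with wild-type counts. Ighv6-6, Ighv11-2, Prdm1, Sdc1, Xbp1, Tnfrsf13b, Derl3, Tnfsf13b, Il6, Pax5 and Rag1 were named after their values were seen, as were the antral genes Pdx1, Gkn1 and Gast. Other genes were Muc6, the constant regions and up to 3 of each list by smallest p.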

Additional observations from a re-analysis of the deposited data

Results flagged for a closer look

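Transcripts of the short J segments and of V pseudogenes, which no comparison above uses, were seen in the knockout and not in wild type. J segments of the antibody loci held 26, 12 and 7 counts in knockout 1, 2 and 3, 45 in all from 9 of 14 genes, and 0 in each wild-type library, where 0 over the group allows up to 3 counts. The order of libraries differed from that of V counts, with knockout 3 lowest. The 130 V pseudogenes of the 3 loci held 2, 4 and 1 counts, 7 in all, from 5 genes, against 7840 counts of the 216 V segments in the same libraries, and 0 in wild type. D segments had no counts in any library.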

How the results depend on the processing

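The number of V segments called higher, 16, depended on how many passed the filter on low counts: it was 67 of 170 tested with no filter, where 15 of the 16 were kept and 12.6% of all genes tested were higher, and 5 of 5 with at least 1 CPM in 3 libraries, where 20.2% were. It was 16 with RLE, upper quartile or total-count scaling, DESeq2 and limma-voom, where 18.5% to 40.9% of all genes were higher. Leaving out 1 library gave 19 to 40, with more segments tested (21 to 52), and at least 15 of the 16 kept. No segment was called lower under any of these settings. That carries no weight, because wild type 1, 2 and 3 held 0, 4 and 1 V counts. Over all genes, 5386 calls became 3342 to 6009 when 1 library was left out, with 3342 without wild type 2 and 3531 without knockout 2. Total-count scaling gave 5730 higher and 1091 lower against 2699 and 2687, with the median of all genes shifted by 0.42 (log2).

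With the replicate number as a block, 17 segments were called, Ighv6-3 among them (adjusted p = 0.00319), Iglc3 passed (0.00482), and 5069 genes were called in all, with 18.3% of those tested higher. Deviations of same-numbered libraries correlated at 0.25, 0.09 and 0.19, and wild type 3 correlated best with knockout 2 (0.27), so numbers were not taken as pairs. Differences in summed V level kept their direction under all settings tried, from 7.95 to 8.92 (heavy), 8.54 to 9.36 (kappa) and 5.21 to 6.51 (lambda) when 1 library was left out, and 5.35, 5.63 and 3.25 with a pseudocount of 1 CPM.

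Segments with at least 10 counts numbered 69, 38 and 69 in knockout 1, 2 and 3 and 0 in wild type 2 and 3, and with at least 3 counts wild type 3 also had 0. Counted by family, the leading share was 45.0% (heavy, Ighv1) and 26.2% (kappa, Igkv4) in knockout 1 and 32.4% (Ighv1) and 22.3% (Igkv1) in knockout 2. Counts per exon length, unrounded counts and added pseudogenes left each leading share within its interval.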
